A study of Mus musculus with 12 samples.

Results

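Carboxylesterases cut ester bonds in drugs, in environmental chemicals and in stored lipids, and liver is 1 of their main sites. Most sit in the endoplasmic reticulum of hepatocytes, where members of the Ces1 group hydrolyse triglyceride that feeds very-low-density lipoprotein, and members of the Ces2 group hydrolyse acylglycerols and many drug esters. Mice carry several tandem copies of each type, whereas drug hydrolysis in human liver is mainly ascribed to CES1, and that in intestine to CES2. The 10 carboxylesterase genes described here were chosen by symbol: Ces1b, Ces1c, Ces1d, Ces1e, Ces1f, Ces1g, Ces2a, Ces2c, Ces2e and Ces3a, which are 10 of 26031 genes with counts in at least some libraries.

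Liver RNA of C57BL/6N mice was sequenced in 4 groups of 3 libraries. HFD PCN mice ate a high-fat diet and received 50 mg/kg pregnenolone 16α-carbonitrile (PCN), a synthetic steroid and agonist of the pregnane X receptor (PXR) in rodents, by intraperitoneal injection once daily for 4 days. HFD Vehicle mice ate the same diet and were injected with 30% DMSO in corn oil, also for 4 days. HFD mice ate it without injection, and Chow mice ate regular chow without injection. Diets began at 6 weeks of age and ran for 15 weeks. The labels do not say that each library is a separate animal, so p-values measure the spread between these libraries. In bulk liver RNA, fewer cells of a type and less RNA per cell cannot be told apart.

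Values are read counts divided by library size factors on 1 scale (normalized counts). A fold is a ratio of group means. "Rose" and "fell" mark an adjusted p under 0.05 in the authors' deposited DESeq2 tables, and a stricter second test, edgeR's quasi-likelihood test of the same counts, is given beside them. For HFD Vehicle against HFD, the only comparison whose table was complete, edgeR across 13775 genes is the test. The other 5 tables gave values only for genes past the threshold, so 8 of the 10 genes had counts in all 12 libraries, and Ces1b and Ces3a had them only in HFD Vehicle and HFD livers. Library totals were 19773659 to 22039822 counts for HFD Vehicle and 7468102 to 38167000 for HFD, and size factors put the other 6 libraries at about 11400000 to 35300000. All 5 hepatocyte markers were measured, with summed levels of 916857 to 1515272 normalized counts in HFD Vehicle livers and 1229720 to 1624703 in HFD livers. HFD Vehicle replicate 55 was the lowest of its group for all 10 genes, and HFD replicate 38, the shallowest library, was the lowest of its group for 8 of 10.

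All 10 genes are protein-coding and lie in 2 clusters on chromosome 8 of GRCm38. The Ces1 members are on the minus strand between position 93056728, the start of Ces1b, and position 93337308, the end of Ces1g. The Ces2 members and Ces3a are on the plus strand between position 104734003, the start of Ces2a (ENSMUSG00000055730), and position 105058413, the end of Ces3a. By their longest coding transcripts, Ces2a, Ces2c and Ces2e were 81.4% to 81.9% identical to each other, and Ces1b and Ces1c 91.4%. Shared stretches can move reads between copies: 36.1% of the 50-base words of Ces2c occur in other genes, mostly in the pseudogene Ces2d-ps, as do 25.6% for Ces3a (all shared with Ces3b), 17.3% for Ces2a, 13% for Ces1c and 11.6% for Ces1b. The share was 3.30% or less for Ces1d, Ces1e, Ces1f, Ces1g and Ces2e. Ces2d-ps itself had at most 4 counts in any HFD Vehicle or HFD library.

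The promoters of 5 genes are printed to set genes that rose with PCN beside relatives that did not pass: Ces2a and Ces2c beside Ces2e, and Ces1c beside Ces1e. Each covers 250 bases before and 50 bases after the gene's start in RefSeq (GRCm38.p6), read 5′ to 3′ on the gene's strand. They are chr8:104733753-104734052 (plus) for Ces2a, chr8:104846818-104847117 (plus) for Ces2c, chr8:104926010-104926309 (plus) for Ces2e, chr8:93131234-93131533 (minus) for Ces1c and chr8:93229570-93229869 (minus) for Ces1e. Capitals mark each match on either strand to AGNTCA (N, any base). This is a loose form of the hexamer that PXR and related nuclear receptors bind in pairs.
Ces2a: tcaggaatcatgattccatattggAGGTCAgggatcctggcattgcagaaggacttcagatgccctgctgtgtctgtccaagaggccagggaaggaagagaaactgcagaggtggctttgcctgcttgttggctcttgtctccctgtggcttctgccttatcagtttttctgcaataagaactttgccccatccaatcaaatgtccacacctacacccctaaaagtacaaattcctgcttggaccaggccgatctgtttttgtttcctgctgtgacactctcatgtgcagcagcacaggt
Ces2c: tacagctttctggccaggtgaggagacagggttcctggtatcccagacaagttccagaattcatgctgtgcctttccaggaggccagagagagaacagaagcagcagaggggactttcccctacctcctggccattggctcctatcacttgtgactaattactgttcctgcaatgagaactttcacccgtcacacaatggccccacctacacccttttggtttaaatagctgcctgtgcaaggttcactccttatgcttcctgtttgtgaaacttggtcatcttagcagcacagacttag
Ces2e: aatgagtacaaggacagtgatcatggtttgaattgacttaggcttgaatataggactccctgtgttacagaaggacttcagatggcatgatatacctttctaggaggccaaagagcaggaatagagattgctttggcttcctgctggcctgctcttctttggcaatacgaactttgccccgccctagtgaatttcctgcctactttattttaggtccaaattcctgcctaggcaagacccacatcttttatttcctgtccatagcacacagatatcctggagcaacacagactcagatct
Ces1c: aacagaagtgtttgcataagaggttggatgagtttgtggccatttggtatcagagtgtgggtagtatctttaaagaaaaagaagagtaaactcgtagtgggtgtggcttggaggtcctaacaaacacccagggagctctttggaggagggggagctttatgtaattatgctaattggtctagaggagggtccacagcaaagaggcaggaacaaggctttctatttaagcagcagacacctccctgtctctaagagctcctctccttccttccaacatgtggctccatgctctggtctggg
Ces1e: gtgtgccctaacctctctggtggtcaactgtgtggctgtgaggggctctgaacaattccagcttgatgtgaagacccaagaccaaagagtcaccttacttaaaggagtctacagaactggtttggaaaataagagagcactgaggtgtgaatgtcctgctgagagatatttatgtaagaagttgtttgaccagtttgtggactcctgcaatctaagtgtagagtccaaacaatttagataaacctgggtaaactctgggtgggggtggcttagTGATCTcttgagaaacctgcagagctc
The Ces2a window held 1 such hexamer, 226 bases before the start, and the Ces1e window held 1, 23 bases after it. Those of Ces2c, Ces2e and Ces1c held 0. AGNTCA, with any base at N, occurred in 46.6% of 32817 mouse promoters of this length. Paired hexamers were searched on both strands as direct repeats 1 base (DR1), 3 bases (DR3) or 4 bases (DR4) apart and as an everted repeat, TGANCT then AGNTCA, 6 bases apart (ER6). They occurred in 0.219%, 0.0701%, 0.125% and 0.0305% of promoters, and in 0 of the 7 members that had a RefSeq promoter. These counts describe letters in a short window and say nothing of whether a receptor binds there or elsewhere. The Ces2a promoter was 68.7% identical to that of Ces2c over 291 aligned bases and 69.1% identical to that of Ces2e over 265. Those of Ces1c and Ces1e could be aligned over 134 bases only, at 67.2%.

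PCN against its vehicle raised 5 of the 10 genes and lowered 0. Ces2a rose 19.1-fold, Ces2c 3.46-fold, Ces1d and Ces1g both 1.91-fold and Ces1c 1.81-fold. Of all genes tested, the deposited table called 1.71% in this comparison, with 1.07% higher and 0.641% lower. Ces1b, Ces1e, Ces1f, Ces2e and Ces3a did not pass, and Ces1b and Ces3a have no HFD PCN counts from which to give a ratio.

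Ces2a had 79114, 43267 and 71859.9 normalized counts in the 3 HFD PCN livers, 4775, 3145 and 2247 in HFD Vehicle livers, 1979, 2399.6 and 1292 in HFD livers, and 5357, 7172.5 and 7305.5 in Chow livers. The lowest HFD PCN library stood 9.06-fold above the highest HFD Vehicle library, and no library of either group overlapped. The authors' deposited table gave it an adjusted p of 1.81e-39. edgeR called it too, at a log2 difference of 4.25 ± 0.38 (SE) and an adjusted p of 0.01996, where 0.0580% of all genes were called. Leaving out 1 library at a time kept the ratio between 16.3 and 24.1, and edgeR's adjusted p lay between 0.0136 and 0.0987, above 0.05 in 5 of the 6 fits: those without HFD PCN replicate 5 (0.0629) or 27 (0.0661) and those without HFD Vehicle replicate 15 (0.0684), 23 (0.0987) or 55 (0.0751).

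Ces2c, a close relative of Ces2a that hydrolyses di- and triglycerides, had 1083, 409 and 800.0 normalized counts in HFD PCN livers, 245, 286 and 132 in HFD Vehicle livers, 257, 495 and 275 in HFD livers, and 313, 431 and 326 in Chow livers. HFD PCN and HFD Vehicle libraries did not overlap, but the lowest HFD PCN library lay within the range of the Chow and HFD libraries. Its adjusted p against vehicle in the authors' deposited table was 0.000443, and edgeR's was 0.200 at a log2 difference of 1.80 ± 0.39. Ces2e, which is expressed in small intestine and liver, had 3088, 4201 and 2675 normalized counts in HFD PCN livers and 3287, 3730 and 3050.0 in HFD Vehicle livers. The groups overlapped, and the mean log2 difference was -0.04 ± 0.21 (SE, n = 3 each). In the same livers the ratios of Ces2a, Ces2c and Ces2e were thus 19.1, 3.46 and 0.990. Whether these 3 ratios differ from each other was not tested.

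Ratios of the 5 Ces1 genes with values lay between 1.37 and 1.91. Ces1c, which in mice encodes the carboxylesterase of blood plasma, had 79263, 53200.2 and 67749.8 normalized counts in HFD PCN livers and 42938, 40576 and 26941 in HFD Vehicle livers. Ces1d, the triglyceride hydrolase that mobilises stored fat for lipoprotein assembly, had 49574, 28561 and 40935 in HFD PCN livers and 24037, 21723 and 16479 in HFD Vehicle livers. Ces1g, whose loss in mice raises liver fat, had 11059.6, 7816 and 7493 in HFD PCN livers and 4893, 5959.5 and 2957 in HFD Vehicle livers. In each of the 3 genes every HFD PCN library exceeded every HFD Vehicle library, by 1.24-fold, 1.19-fold and 1.26-fold at the nearest pair for Ces1c, Ces1d and Ces1g. These genes were picked by a test on the same libraries, so such gaps add no support to the calls. The share of all genes without overlap cannot be given, because the table of this comparison lists only called genes. The authors' deposited table gave adjusted p-values of 0.0226, 0.0128 and 0.0443 in the same order, whereas edgeR gave 0.396, 0.306 and 0.385 and called none of them.

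Ces1f, another liver esterase of the endoplasmic reticulum, averaged 10961 ± 1717 normalized counts in HFD PCN livers and 7976 ± 1256 in HFD Vehicle livers (SD, n = 3), a 1.37-fold ratio without overlap that the deposited table did not list. Ces1e, known as egasyn for holding β-glucuronidase in the endoplasmic reticulum, averaged 3003 ± 1014 normalized counts in HFD PCN livers and 2153 ± 484 in HFD Vehicle livers, and the groups overlapped. Within the HFD PCN group, replicate 11 was the lowest library for Ces1c, Ces1d, Ces1f, Ces2a and Ces2c and the highest for Ces1e and Ces2e.

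**Figure D1:**
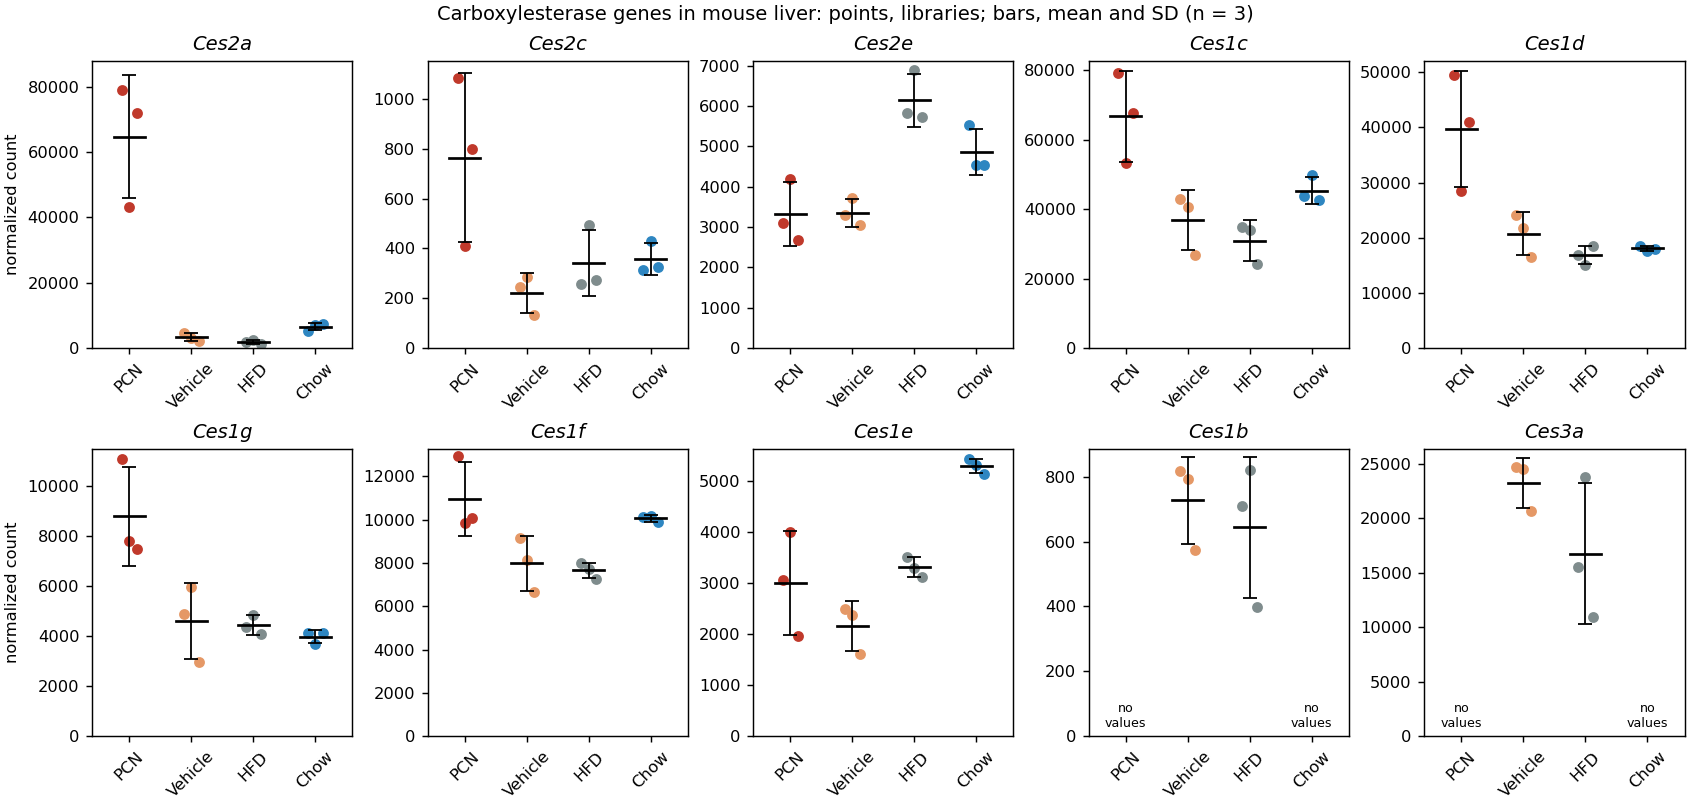
Normalized counts (vertical axes, linear from 0) of the 10 carboxylesterase genes in each library of the HFD PCN, HFD Vehicle, HFD and Chow groups; points are libraries, bars the mean and SD (n = 3). Ces2a stands at 43267 or more in HFD PCN livers and at 7305.5 or less in every other liver, while Ces2e is at 5713 or more in HFD livers only.

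HFD PCN livers differed from uninjected HFD livers by both the injection and PCN, and had 6 of the 10 genes higher and 1 lower, where the deposited table called 3.15% of all genes, 1.90% higher and 1.25% lower. Both PCN comparisons share the HFD PCN libraries, so they are not independent. Ces2a was 34.3-fold higher in HFD PCN livers, Ces1d 2.35-fold, Ces2c 2.23-fold, Ces1c 2.16-fold, Ces1g 1.98-fold and Ces1f 1.43-fold. Ces2e was 1.85-fold lower, at 3321 ± 789 normalized counts in HFD PCN livers and 6141 ± 652 in HFD livers. HFD Vehicle livers, without PCN, were 1.83-fold below HFD livers for this gene, and HFD PCN livers stood at 0.990 of HFD Vehicle livers. The authors' deposited table gave Ces2e an adjusted p of 0.000801, against an edgeR adjusted p of 0.120. edgeR called only Ces2a, with an adjusted p of 0.00858, and 0.530% of all genes. Without HFD PCN replicate 27 or HFD replicate 4, that value was 0.0531 and 0.0648.

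The diet lowered 4 of the 10 genes and raised 0, where the deposited table called 4.85% of all genes, 2.81% higher and 2.05% lower. Ces2a was 3.50-fold lower in HFD livers than in Chow livers, Ces1e 1.60-fold, Ces1c 1.47-fold and Ces1f 1.31-fold. Ces2a averaged 1890.1 ± 559 normalized counts in HFD livers and 6612 ± 1089 in Chow livers, and the highest HFD library lay 2.23-fold below the lowest Chow library. The authors' deposited table gave Ces2a an adjusted p of 3.17e-12. edgeR gave it 0.0408 at a log2 difference of -1.80 ± 0.25 and called no other member, where 0.404% of all genes were called. In the 6 fits that left out 1 library edgeR's adjusted p for Ces2a was 0.0530 to 0.164, above 0.05 without any of HFD replicates 4, 30 and 38 or Chow replicates 8, 17 and 19.

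Ces1e had 3506, 3295 and 3112 normalized counts in HFD livers and 5414, 5295 and 5131 in Chow livers, which left a wide gap between 2 tight groups. Ces1f had 7977, 7728 and 7267 in HFD livers and 10126, 10149.9 and 9888 in Chow livers, also without overlap. Ces1c had 34900.1, 33891 and 24069 in HFD livers and 43682, 49829.6 and 42510.1 in Chow livers. Adjusted p-values in the authors' deposited table were 2.30e-08 for Ces1e, 0.00246 for Ces1f and 0.0323 for Ces1c, and edgeR's were 0.0760, 0.344 and 0.493 in the same order. Ces1d, Ces1g and Ces2c overlapped between HFD and Chow livers, with ratios of 0.932, 1.12 and 0.960. Ces2e ran the other way, at 5819, 6892 and 5713 normalized counts in HFD livers and 5515, 4526 and 4539 in Chow livers, a 1.26-fold ratio that the deposited table did not list.

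PCN against vehicle and HFD against Chow share no library, and their values can be set side by side. Ces2a and Ces1c rose with PCN and fell with the diet. Ces1d, Ces1g and Ces2c rose with PCN and did not pass for the diet, while Ces1e and Ces1f fell with the diet and did not pass for PCN. Ces2e passed in neither, nor did Ces1b and Ces3a, which have no values in HFD PCN and Chow livers.

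**Figure D2:**
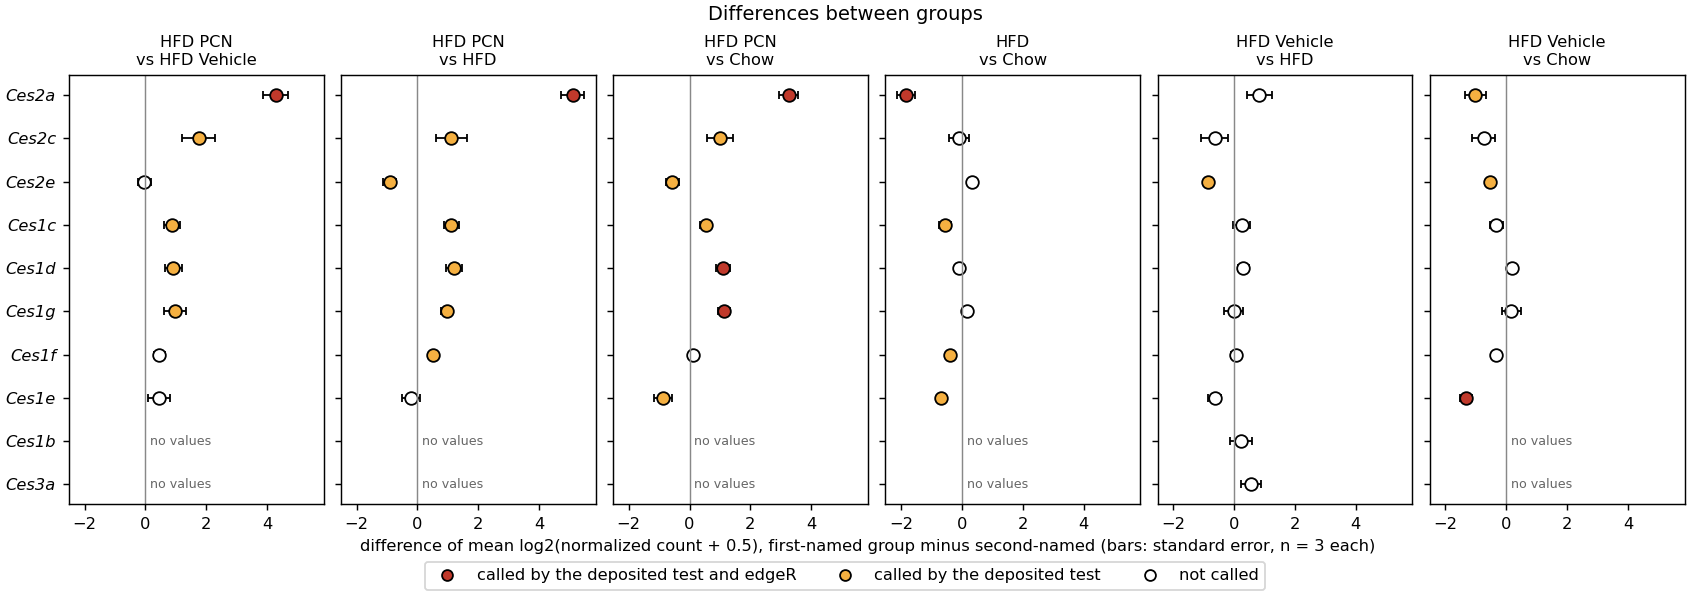
Difference of mean log2(normalized count + 0.5) between groups for each gene, the first-named group minus the second-named (horizontal axes; bars, standard error, n = 3 each), in the 6 comparisons; red points passed the deposited test and edgeR, orange points the deposited test only, white points neither. Ces2a is right of 0 in the 3 PCN comparisons and left of 0 in HFD vs Chow and HFD Vehicle vs Chow. Ces2e is left of 0 in HFD PCN vs HFD and HFD Vehicle vs HFD. It is also left of 0 in HFD PCN vs Chow (-0.57) and HFD Vehicle vs Chow (-0.53), and right of 0 in HFD vs Chow (0.34, not called).

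For vehicle injection against no injection edgeR called 0 of the 10 genes, and 1 of 13775 genes (0.00726%). A gene not called may still differ. At an unadjusted p under 0.05 edgeR listed 3 members, Ces1e, Ces2a and Ces2e, among 1725 genes. Ces2a averaged 3389 ± 1281 normalized counts in HFD Vehicle livers and 1890.1 ± 559 in HFD livers, 1.79-fold higher with overlap (edgeR adjusted p 0.348). Ces1e averaged 2153 ± 484 in HFD Vehicle livers and 3304.5 ± 197.5 in HFD livers, 1.535-fold lower without overlap (edgeR adjusted p 0.257). The authors' deposited table called Ces2e, with an adjusted p of 6.33e-05, among 0.792% of all genes (0.281% higher, 0.511% lower), and a DESeq2 refit called 268 genes in all. Ces2e had 3287, 3730 and 3050.0 normalized counts in HFD Vehicle livers and 5819, 6892 and 5713 in HFD livers, a 1.83-fold lower mean with no overlap, and edgeR gave it an adjusted p of 0.141. The median log2 difference of the 10 members was 0.109, and that of all genes 0.0190.

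In the same comparison the summed ranges of adipocyte, enterocyte and erythroid markers did not overlap between the groups, and no marker list was tested. Summed over each list, adipocyte markers (4 of 5 measured) stood at 195 to 288 normalized counts in HFD Vehicle livers and 526 to 648 in HFD livers, and enterocyte markers (3 of 5) at 920.3 to 1390.0 in HFD Vehicle livers and 1951 to 2666 in HFD livers. Erythroid markers (3 of 3) stood at 2647 to 3345 in HFD Vehicle livers and 4242 to 5226 in HFD livers. The ranges of the stellate, macrophage, endothelial, cholangiocyte and lymphocyte or granulocyte lists overlapped between both groups; stellate markers, for example, stood at 2413 to 5105 in HFD Vehicle livers and 4889 to 7296 in HFD livers. No measured marker was at 0 in all 6 libraries, and their part in the Ces2e difference was not tested. Ces1b and Ces3a, whose counts in HFD PCN and Chow livers the truncated tables do not list, overlapped between HFD Vehicle and HFD livers and did not pass. Ces1b averaged 728 ± 134 normalized counts in HFD Vehicle livers and 644 ± 218 in HFD livers (mean log2 difference 0.22 ± 0.36, SE). Ces3a, a liver esterase next to the Ces2 genes, averaged 23295 ± 2297 normalized counts in HFD Vehicle livers and 16775 ± 6506 in HFD livers (0.54 ± 0.33).

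Set against Chow, HFD PCN livers had 5 members higher and 2 lower, where the deposited table called 8.10% of all genes, 4.43% higher and 3.67% lower. Ces2a was 9.79-fold higher in HFD PCN livers, Ces1g 2.21-fold, Ces1d 2.19-fold, Ces2c 2.14-fold and Ces1c 1.47-fold. Ces1e was 1.76-fold lower and Ces2e 1.46-fold lower. edgeR called Ces2a (adjusted p = 0.00552), Ces1g (0.0221) and Ces1d (0.0432), where 3.07% of all genes were called. The call of Ces2a held in all 6 fits without 1 library, that of Ces1g in 2 and that of Ces1d in 1.

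HFD Vehicle livers against Chow livers had 3 members lower and 0 higher, with 3.10% of all genes called in the deposited table, 1.72% higher and 1.38% lower. Ces1e was 2.45-fold lower, at 2153 ± 484 normalized counts in HFD Vehicle livers and 5280.2 ± 142 in Chow livers, Ces2a 1.95-fold lower and Ces2e 1.45-fold lower. edgeR called Ces1e only (adjusted p = 0.0466), where 0.337% of all genes were called, and no member in any of the 6 fits that left out 1 library.

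Levels can be ranked between genes per kilobase of annotated exon. In HFD PCN livers Ces1c (28729 ± 5622 normalized counts per kb), Ces2a (27447 ± 8034) and Ces1d (16754 ± 4458) led, and Ces2a overlapped both of the others. Next came Ces1g (3681 ± 826) and Ces1f (3337 ± 523), which overlapped each other, then Ces1e (1372 ± 463) and Ces2e (1230.5 ± 293), also overlapping, and Ces2c (333 ± 147). In HFD Vehicle livers Ces1c led at 15849.5 ± 3717, followed by Ces3a (8868 ± 875) and Ces1d (8758 ± 1635), which overlapped. Ces2a stood at place 6 of 10 there, at 1437 ± 543, and overlapped Ces1g above it and Ces2e below it. In HFD livers Ces2a was at place 8 of 10, at 801 ± 237 per kb, apart from Ces1e above it (1509.6 ± 90.2) and Ces1b below it (328 ± 111). In Chow livers it stood at place 4 of 8, at 2803 ± 462, and overlapped Ces1f (3061 ± 44.1) and Ces1e (2412 ± 64.9). Ces1c was first and Ces2c last of the 10 genes in HFD Vehicle and HFD livers, and of the 8 with values in HFD PCN and Chow livers, where Ces1b and Ces3a could not be ranked.

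Shares of the summed count of the 8 genes with counts in every library were also compared, since they need no size factor. Ces1b and Ces3a are left out for want of values in HFD PCN and Chow livers. Ces3a averaged 23295 ± 2297 normalized counts in HFD Vehicle livers and 16775 ± 6506 in HFD livers. These shares and sums therefore describe the 8 genes, and those of all 10 could not be given for HFD PCN and Chow livers. Ces2a made up 33.1%, 28.6% and 35.3% of the summed count in the HFD PCN libraries, and 32.3% ± 3.4 on average. It made up 4.20% ± 0.87 in HFD Vehicle livers, 2.61% ± 0.60 in HFD livers and 6.99% ± 1.12 in Chow livers (SD, n = 3). Ces1c took 33.9% ± 1.1 in HFD PCN livers, 46.3% ± 1.3 in HFD Vehicle livers, 42.95% ± 4.83 in HFD livers and 47.9% ± 2.25 in Chow livers. The summed normalized count of the 8 genes was 198014 ± 44201 in HFD PCN livers, 79262 ± 16894 in HFD Vehicle livers, 71600.1 ± 6274 in HFD livers and 94569.6 ± 3677.5 in Chow livers. Without Ces2a the sums were 133267 ± 26052 in HFD PCN livers, 75873.5 ± 15791 in HFD Vehicle livers, 69710.0 ± 5780.1 in HFD livers and 87958 ± 3516 in Chow livers. In the 6 libraries with counts for every gene, all 10 members together held 0.404% to 0.563% of reads counted.

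**Figure D3:**
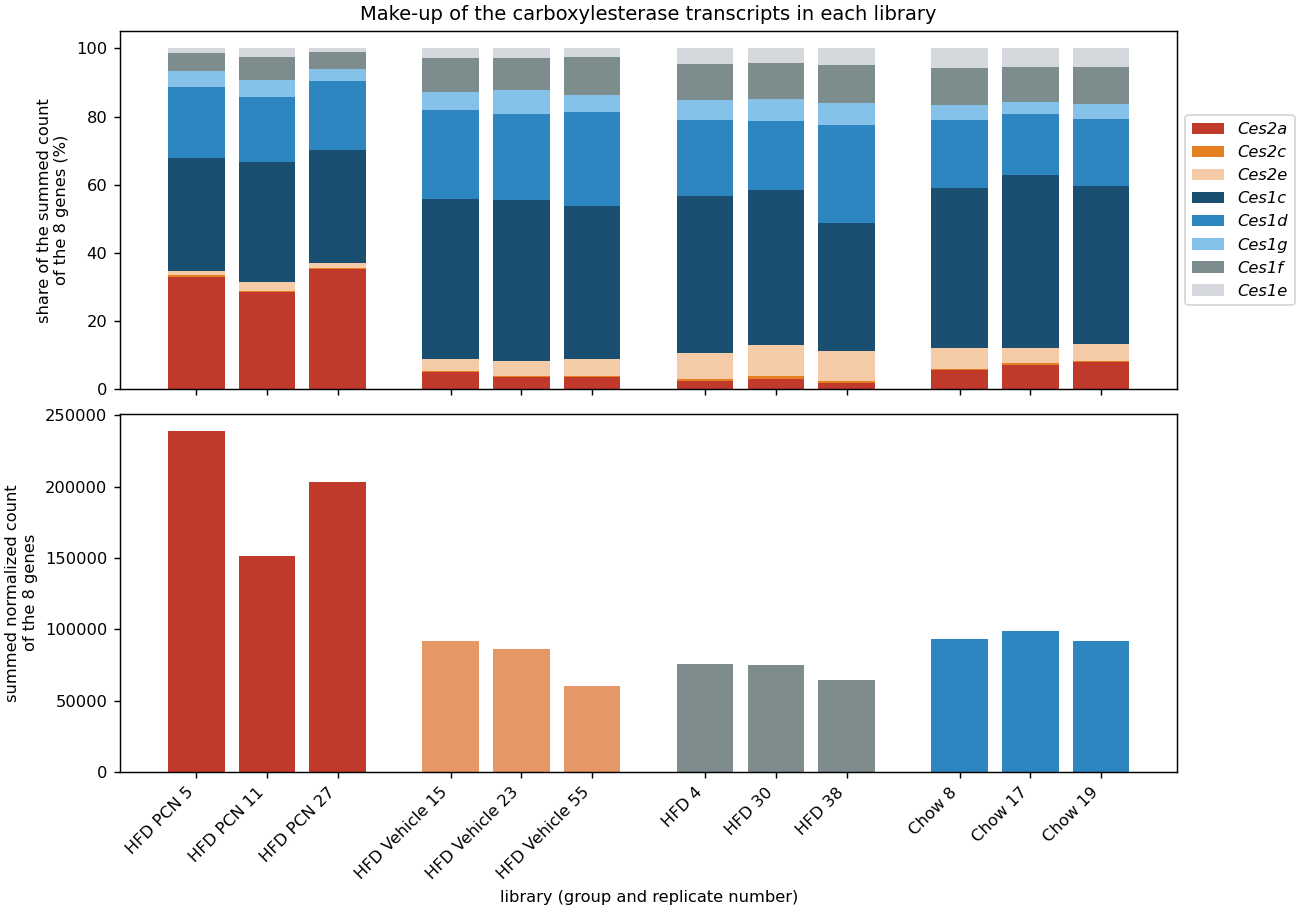
Share of each gene in the summed count of the 8 carboxylesterase genes with counts in all 12 libraries (upper panel, percent, stacked) and the summed normalized count of these genes (lower panel) in each library. Ces2a, the lowest segment, fills 28.6% to 35.3% of the HFD PCN columns and at most 7.95% of the others.

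Of the remaining carboxylesterase genes 9 had counts. Ces2g, also in the Ces2 cluster, rose 2.01-fold with PCN against vehicle, at 1262 ± 238 normalized counts in HFD PCN livers and 629 ± 74.0 in HFD Vehicle livers. Ces4a, at the end of that cluster, was called lower in the deposited table, on raw counts of 5, 0 and 2 in HFD PCN livers and 25, 8 and 19 in HFD Vehicle livers. Ces3b fell with the diet, at 1563 ± 863 normalized counts in HFD livers and 4905 ± 1039 in Chow livers (3.14-fold lower), and Ces2g was 1.48-fold higher in HFD livers. Ces1a, Ces1h, Ces2b and Ces2f had at most 14 counts in any HFD Vehicle or HFD library. For PCN against vehicle edgeR could test only Ces2g, Ces2h and Ces4a, and for HFD against Chow only these and Ces3b. The rest of the 9 lacked counts in at least 1 of the groups compared. None of those tested was called there, and Ces2g and Ces2h, both higher, were called in HFD PCN against Chow.

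**Figure D4:**
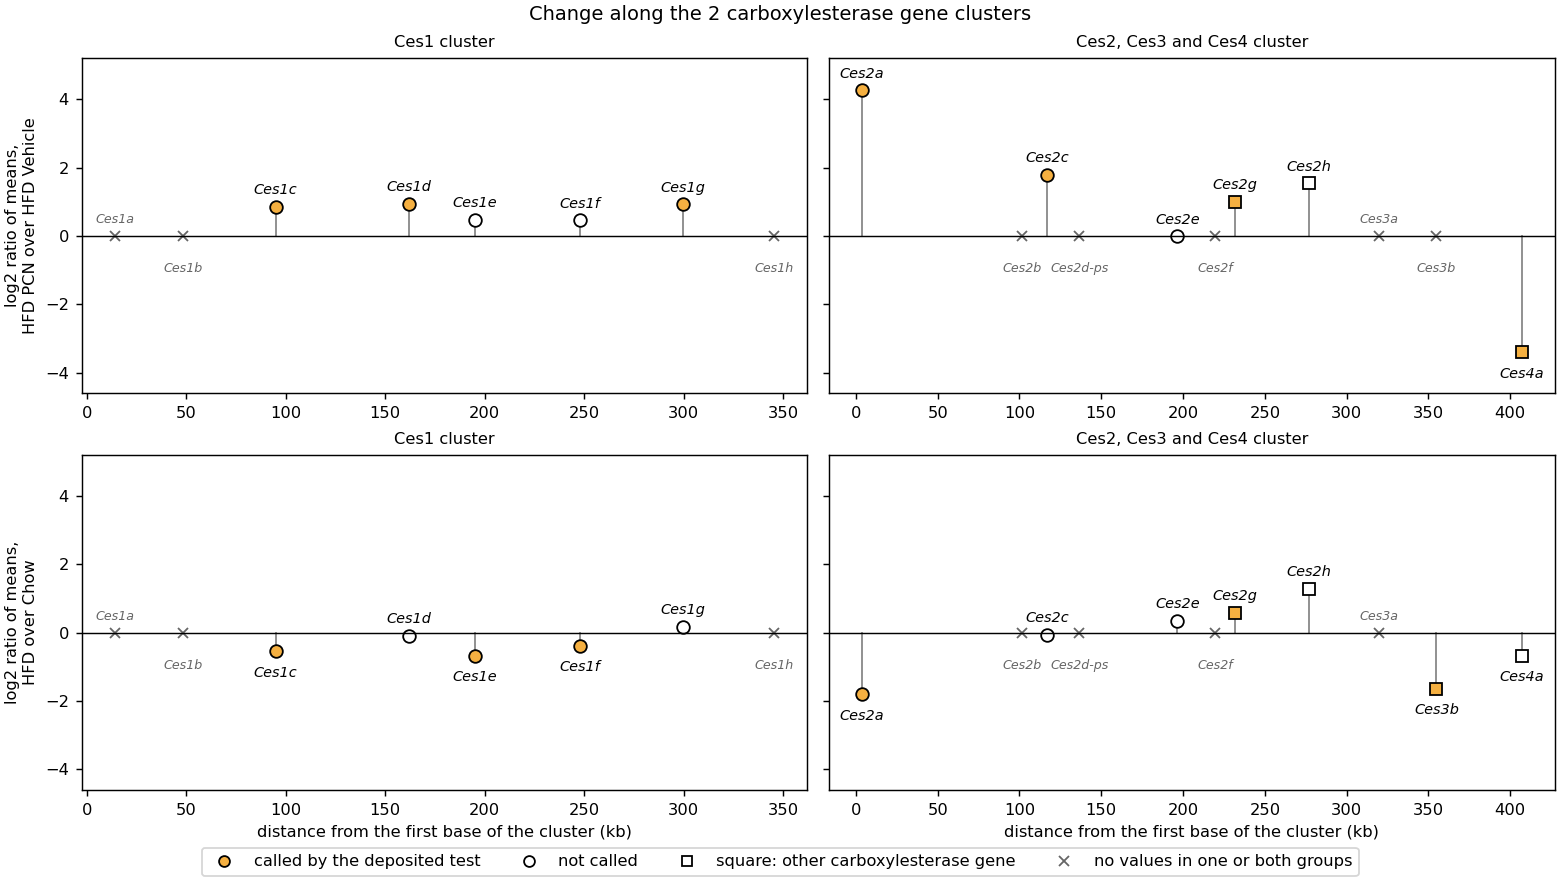
Log2 ratio of group means (vertical axes) of carboxylesterase genes placed by their distance from the first base of each cluster (horizontal axes, kb), for HFD PCN over HFD Vehicle (upper panels) and HFD over Chow (lower panels); filled symbols passed the deposited test, squares are genes outside the 10, crosses lack values in at least 1 group. Ces2a, at the left end of its cluster, has the highest upper value (4.26), while Ces2e in the same cluster is at -0.01.

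Of 57 other genes within 500 kb of the members, 1 passed in HFD PCN against HFD Vehicle, Gm7208, which rose; 1.71% of all genes passed, so the count is near that share. Gm7208 is a transcribed pseudogene at positions 104675536 to 104682211 on the minus strand, and 19.2% of its 50-base words occur in Ces2a. It averaged 133 ± 43.3 normalized counts in HFD PCN livers, 2.87 ± 3.24 in HFD Vehicle livers, 4.54 ± 4.15 in HFD livers and 14.1 ± 6.29 in Chow livers. Its raw count was 0.172% to 0.227% of that of Ces2a in the HFD PCN libraries, 0.0315% to 0.1385% in the HFD Vehicle libraries, 0% to 0.340% in the HFD libraries and 0.162% to 0.2875% in the Chow libraries. Whether those reads came from Ces2a was not tested.

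Of 44 measured genes known as targets of PXR or its relative CAR, 22 rose, 1 fell and 21 did not pass in HFD PCN against HFD Vehicle, where 1.71% of all genes were called. edgeR called 5 higher and 0 lower. Cyp3a44, a cytochrome P450, averaged 1131 ± 452 normalized counts in HFD PCN livers and 17.8 ± 12.9 in HFD Vehicle livers. Gstm3, a glutathione transferase, averaged 41909 ± 24237 in HFD PCN livers and 133 ± 82.7 in HFD Vehicle livers. Ugt1a9, a glucuronosyltransferase, averaged 1503 ± 367 in HFD PCN livers and 121 ± 83.1 in HFD Vehicle livers. Its level was 683 ± 321 in HFD livers and 487 ± 95.6 in Chow livers. The deposited table called Ugt1a9 5.64-fold lower in HFD Vehicle than in HFD livers, so part of its ratio to vehicle lies in the vehicle group. Alas1, which starts heme synthesis, was the gene that passed in the other direction, 2.04-fold lower in HFD PCN livers. It averaged 18760 ± 6932 normalized counts in HFD PCN livers and 38305.5 ± 2240 in HFD Vehicle livers. In uninjected livers it stood at 29705 ± 5539 (HFD) and 20319 ± 2111 (Chow).

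With the diet 6 of the 44 rose and 7 fell, where 4.85% of all genes were called, and edgeR called 3 higher and 2 lower. Cyp3a11, the main PCN-inducible cytochrome P450, was 3.47-fold lower in HFD livers, beside 3.50-fold for Ces2a. In HFD Vehicle livers the 2 genes parted, at 7.155-fold below Chow livers for Cyp3a11 and 1.95-fold for Ces2a. Cyp3a44 was 3.59-fold lower in HFD than in Chow livers, while Abcb1a, an efflux pump, was 3.65-fold higher. Cyp2b9, another cytochrome P450, was 68.2-fold higher, at 6256 ± 381 normalized counts in HFD livers and 91.7 ± 101 in Chow livers. HFD PCN livers had 26 higher and 1 lower than HFD livers (edgeR 11 and 0), where 3.15% of all genes were called. Against Chow livers they had 29 higher and 0 lower (edgeR 18 and 0), where 8.10% of all genes were called. Por, which passes electrons to cytochromes P450 and is among the 26, was also called higher in HFD Vehicle than in HFD livers by the deposited table, 1.76-fold. In HFD Vehicle against HFD, edgeR called 0 of the 44 in either direction, at a median log2 difference of -0.15. The deposited table gave 1 higher and 3 lower (Ugt1a9, Gstm1 and Gstm2), and called 0.792% of all genes. HFD Vehicle against Chow had 4 higher and 4 lower (edgeR 1 and 1), where 3.10% of all genes were called.

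Of 24 other esterases and hydrolases, 1 rose with PCN against vehicle and 0 fell, where 1.71% of all genes were called. The gene that rose was Ephx1, the microsomal epoxide hydrolase (2.26-fold). edgeR called 0, but in this and the other comparisons with truncated tables it could test only genes with counts in both groups. With the diet 1 rose and 3 fell, where 4.85% of all genes were called, among them the acyl-CoA thioesterase Acot1 (2.78-fold lower) and Ephx2, the soluble epoxide hydrolase (1.51-fold lower), and edgeR called 0. HFD PCN livers had 4 higher and 3 lower than Chow livers, where 8.10% of all genes were called (edgeR 2 and 1). Against HFD livers they had 1 higher and 0 lower (edgeR 1 and 0), where 3.15% of all genes were called.

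Of 29 genes of neutral lipid hydrolysis and triglyceride handling, 1 rose and 2 fell with PCN against vehicle, where 1.71% of all genes were called. edgeR called 0 of those with counts in both groups and could not test the others. Tm6sf2, which acts in lipoprotein secretion, was 2.40-fold higher and the lipid droplet gene Plin4 1.55-fold lower. With the diet 6 rose and 2 fell (edgeR 1 and 0), where 4.85% of all genes were called. Among them were the lipid droplet genes Cidea (29.2-fold higher) and Cidec (7.25-fold higher) and Mttp, which loads lipid onto apolipoprotein B (1.35-fold lower). HFD PCN livers had 2 higher and 7 lower than HFD livers (edgeR 0 and 3), where 3.15% of all genes were called. In HFD Vehicle against HFD edgeR called 0 of the 29, at a median log2 difference of -0.32. The deposited table gave 0 higher and 4 lower, and called 0.792% of all genes.

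Of 20 receptors and regulators, 0 rose and 1 fell with PCN against vehicle, where 1.71% of all genes were called. It was the repressor Nr0b2, and edgeR called 0 of those with counts in both groups and could not test the others. With the diet 1 rose and 3 fell (edgeR 1 and 0), where 4.85% of all genes were called. Srebf1, a lipogenic transcription factor, was 2.84-fold higher in HFD than in Chow livers. Nr1i2, which encodes PXR, averaged 2221 ± 235 normalized counts in HFD Vehicle livers, 1986 ± 106 in HFD livers and 1522 ± 177 in Chow livers.

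Over the 12 libraries the levels of the members, as log2(normalized count + 1), followed each other to differing degrees. Libraries of a group share their treatment, so these correlations are descriptions. Pearson's r was 0.926 between Ces2a and Ces1c, 0.889 between Ces2a and Ces1d and 0.920 between Ces1c and Ces1f. It was 0.0110 between Ces2a and Ces1e and -0.585 between Ces2a and Ces2e. Among 2219 other genes with counts in all 12 libraries, which the truncated tables limit to genes called in at least 1 comparison, the most like Ces2a was the ribosomal protein gene Rpl13 (r = 0.979). The most like Ces2c was the cytochrome P450 gene Cyp3a25 (0.912), the most like Ces1e was Mttp (0.959), the most like Ces1d was Aprt (0.961) and the most like Ces2e was Olig1 (0.951).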

How the data were processed

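RNA was sequenced from 12 mouse liver libraries, 3 per group. Per the submitters' processing notes, HISAT2, HTSeq and DESeq2 were used with GRCm38 (mm10); their versions and settings are not given in the sources used here. For each of 6 pairs of groups the authors deposited a table with raw counts of reads by gene and with DESeq2 log2 fold changes, p-values and adjusted p-values. The table of HFD Vehicle against HFD covered 26015 genes; in the other 5, values were present only where the adjusted p was under 0.05. Where tables shared a library, their counts were equal (15768 values compared, 0 differed).

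Size factors were solved from each deposited mean and its counts and brought to 1 scale (the largest difference from 1 table to another was 0.518%). The deposited log2 changes are moderated toward 0, so folds are ratios of group means. The complete table was tested with edgeR 4.0.16 (TMM, expression filter, quasi-likelihood, 13775 genes). For the other 5 the deposited calls are the main result, and their counts were tested again with edgeR on the recovered size factors and the dispersion prior of the complete table. Benjamini-Hochberg adjustment ran over the estimated 25100 to 25880 genes the authors tested, with unlisted genes at p = 1, which makes these adjusted p-values upper bounds. DESeq2 1.42.0 was an alternative. Tests were two-sided, and the code was tested on simulated data. An exact permutation test of 3 against 3 libraries cannot give p below 0.10.

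The 10 members, the gene lists and the tests were chosen with earlier results of these data known. Named genes are all members, the other carboxylesterases called, up to 4 called genes per list by the largest deposited log2 change with a mean count of at least 50, and the genes most like each member; Alas1, Mttp in the lipid list and Nr1i2 were added after their values were seen. Gene models are from GENCODE M21 (GRCm38), with coordinates equal to the deposited ones for all members, and promoters from RefSeq, found for 7 of 10 members.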

Additional observations from a re-analysis of the deposited data

How the results depend on the processing

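No paired analysis was possible because the groups share no replicate numbers. The number of members called depended on the test: edgeR with the prior of the complete table called 1 member in HFD PCN against HFD Vehicle (deposited 5), 1 against HFD (deposited 7), 3 against Chow (deposited 7), 1 in HFD against Chow (deposited 4) and 1 in HFD Vehicle against Chow (deposited 3). With the prior of the listed genes the counts were 1, 1, 3, 1 and 0. In HFD Vehicle against HFD edgeR called 0, also with DESeq2 size factors, whereas a DESeq2 refit, the deposited test and edgeR without the expression filter each called 1, Ces2e. Leaving out 1 library at a time gave 0 to 1, 0 to 2, 1 to 4, 0 to 0, 0 to 0 and 0 to 0 members in HFD PCN against HFD Vehicle, HFD PCN against HFD, HFD PCN against Chow, HFD against Chow, HFD Vehicle against HFD and HFD Vehicle against Chow. The cause was not tested. Over all genes the deposited tables and edgeR called 442 and 15, 809 and 136, 2032 and 770, 1226 and 102, 206 and 1, and 790 and 86, in that order. No called member changed sign under these settings. Other size factors or library totals moved no member's ratio by as much as the spread between replicates. Fits without 1 library cannot be judged that way, because dropping 1 of 3 values moves their mean by less than their SD. Ranked by the longest coding transcript in place of all exons, a choice made after seeing the data, Ces1f and Ces1g changed places in HFD PCN livers, and the other 34 places stayed. The share of Ces2a without any 1 library, also added later, was 30.8% to 34.2% in HFD PCN livers and 3.70% to 4.47% in HFD Vehicle livers. It was 2.31% to 2.91% in HFD livers and 6.51% to 7.61% in Chow livers.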
